A study of Mus musculus with 3 samples.

Results

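Early erythroid progenitors that still carried Gata2 transcripts were taken from 3 single-cell libraries of mouse bone marrow nucleated cells (BMNCs) collected 14 days after irradiation. Members were chosen by measured values: at least 2 UMIs (unique molecular identifiers, each standing for 1 captured transcript) of Klf1, at least 2 of Car1, at least 1 of Gata2, 0 of Ms4a2 and at most 1 of Slc4a1, in cells with at least 200 genes and at most 5% mitochondrial UMIs. Of 31292 kept cells, 1736 met these limits, with 292 in the Control library, 811 in the IR library and 633 in the IR+CBD library.

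Control mice were not irradiated. IR mice received 6.0 Gy of cobalt-60 gamma rays and the solvent, soybean oil with 2% DMSO. IR+CBD mice received the same dose of radiation and cannabidiol (CBD), a non-psychoactive cannabinoid of the hemp plant, at 50 mg/kg by intraperitoneal injection 12 h and 0.5 h before and 12 h and 24 h after irradiation. All mice were wild type on the C57BL/6 background, and no allele differed between the groups. They were male, and their age is not given in the sources used here. In each library, Lin-Kit+, Lin-Kit- and Lin+ cells sorted from the marrow of 3 mice were pooled and remixed at 5:4:1, so the sort itself set part of every share of cells given here. Each condition was 1 library, so no difference between libraries could be tested against a spread between mice. All intervals below are 95% intervals of counting error only.

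Erythroid cells arise from progenitors shared with megakaryocytes, basophils and mast cells. In early progenitors the transcription factor GATA2 occupies many regulatory sites, and GATA1 replaces it there as red cell differentiation proceeds, a step known as the GATA switch. KLF1 then drives the genes of the red cell program, Car1 encodes a carbonic anhydrase typical of early erythroid cells, and Slc4a1 encodes the anion exchanger of the mature red cell membrane. Cells with Klf1 and Car1 that still hold Gata2 RNA therefore lie early on this path, while Ms4a2, the beta chain of the IgE receptor, marks the basophil and mast cell branch.

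The values used for the choice are given as a description. The summed Klf1 level was 189 CPM (UMIs of the gene per 1000000 UMIs summed over the members) in Control, 205 CPM in IR and 202 CPM with CBD, and the median member held 7, 8 and 8 UMIs. Gata2 stood at 54.5, 64.7 and 61.9 CPM, with a median of 2 UMIs in each library. Car1 differed more, at 3665 CPM in Control against 2060 CPM in IR and 2642 CPM with CBD, with medians of 143.5, 76 and 92 UMIs. So Car1 lay well above its limit in nearly all members, while Gata2 lay on its limit of 1 UMI in 124 of 292, 272 of 811 and 255 of 633 members. Klf1 lay on its limit of 2 UMIs in 35, 79 and 53 members. Just outside the limits, 81, 105 and 107 cells failed by Klf1 at 1 UMI alone, and 1, 18 and 8 by Car1 at 1 UMI alone. Ms4a2 at 1 UMI alone kept out 3, 23 and 21 cells, and Slc4a1 above its limit kept out 3, 6 and 1.

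Markers that the rule did not use were those of erythroid cells. At an equal depth of 5000 UMIs per cell, Gata1 was seen in 35.3, 38.2 and 36.5% of members (Control, IR and IR+CBD, an order used throughout). Epor, the erythropoietin receptor, was seen in 27.7, 30.9 and 29.4%, and Ermap, an erythroid membrane protein, in 66.1, 64.1 and 67.0%. Rhag, the Rh-associated glycoprotein, was seen in 33.2, 41.3 and 42.2%. Each of these markers was seen more often in cells within the same limits but with no Gata2 UMI. There Gata1 was seen in 41.8, 40.6 and 44.1%, Epor in 36.2, 36.3 and 35.9% and Rhag in 40.5, 53.7 and 53.5%. Ermap was seen in 68.5, 72.8 and 71.1%. These markers thus show erythroid cells and do not set the members apart as the earlier ones. B-lineage cells, which should lack these transcripts and were chosen here by Cd79a and Ebf1, gave the background at the same depth. In these cells Gata1 was seen in 1.03, 3.33 and 2.30%, Epor in 0.710, 2.94 and 1.31%, and Ermap in 2.05, 5.03 and 4.05%, after 1465, 2011 and 1595 shallower B-lineage cells were left out. Without thinning, Gata1 was found in 95.2, 92.0 and 93.7% of members, at a median of 40855.5, 45205 and 41933 UMIs and 6323, 6515 and 6329 genes per member. Other kept cells had medians of 12019, 12107 and 11259.5 UMIs. The members were thus among the deeper cells of each library, and no member fell below 5000 UMIs.

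Transcripts of other lineages were also present. Of 25 megakaryocyte genes, 22, 24 and 21 held UMIs in members, as did 27, 26 and 26 of 27 stem cell genes. Of 12 genes of T and natural killer cells, 10, 10 and 7 did. B-lineage cells held UMIs of 23, 21 and 25 of the megakaryocyte genes. They held UMIs of all 27 stem cell genes and all 12 T and natural killer genes in each library. Such counts over summed cells are thus not read as expression in members. Among the genes without UMIs in members, Cd3e was at 0 in all libraries, Procr in IR and IR+CBD, and Gp1bb in Control and IR+CBD. The 20 genes of the granulocyte and monocyte list gave a median of 17, 15 and 14 UMIs per member, and S100a8 was seen at equal depth in 35.6, 35.0 and 37.1% of members against 58.8, 49.0 and 52.3% of B-lineage cells. At equal depth that share lay below the background, and it is not read as expression. Without thinning S100a8 was found in 94.5, 94.3 and 94.0% of the deeper members against 75.2, 66.1 and 67.4% of B-lineage cells. A few members held far more UMIs of the granulocyte and monocyte list, up to 10063, 11741 and 7208 in a single cell. In all, 41, 131 and 101 members held at least 40 UMIs of the granulocyte and monocyte list, 20 of the B list or 20 of Pf4, and are called mixed cells below. Of these, 39, 118 and 91 were also among the highest doublet scores of their library. Without the mixed cells the summed level of the granulocyte and monocyte list went from 3097, 3703 and 2977 CPM to 415, 332 and 337 CPM, and that of the B list from 124, 406 and 205 CPM to 31.1, 25.6 and 22.9 CPM. These lists set the limits, so their fall is fixed in part by the choice. Results that rest on mixed cells are given with and without them.

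Members made up 2.74% of kept cells in Control (2.43 to 3.06), 7.84% in IR (7.33 to 8.37) and 6.16% in IR+CBD (5.70 to 6.64). The share in IR was 2.87 times that of Control (2.50 to 3.29). In IR+CBD it was 0.786 times that of IR (0.707 to 0.873) and 2.25 times that of Control (1.96 to 2.60). The order was Control, IR+CBD and IR from low to high. These intervals count cells within 1 library each and do not measure differences between mice or libraries. Without the mixed cells the shares were 2.35, 6.57 and 5.18%, in the same order.

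Neighbouring cells on the erythroid path did not all follow that order. Cells within the same limits but with no Gata2 UMI made up 2.17, 3.87 and 4.04% of kept cells, with a ratio of IR to Control of 1.78 (1.51 to 2.10), and the ratio of IR+CBD to IR was 1.04 (0.909 to 1.20). Among all cells with Klf1 and Car1 in these limits, a Gata2 UMI was present in 55.7, 67.0 and 60.4%. Cells with Klf1, Car1 and at least 2 Slc4a1 UMIs, further along the path, numbered 23, 71 and 42. Cells with Gata2 and Itga2b, an integrin of megakaryocytes and early progenitors, but at most 1 UMI each of Klf1 and Car1, showed the opposite order at 1.97, 0.841 and 1.56%. Their share in IR was 0.427 times that of Control (0.329 to 0.551), and in IR+CBD 1.85 times that of IR (1.42 to 2.43). More cells of a kind, fewer cells of other kinds and the remixing of sorted cells cannot be told apart from such shares.

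**Figure D1:**
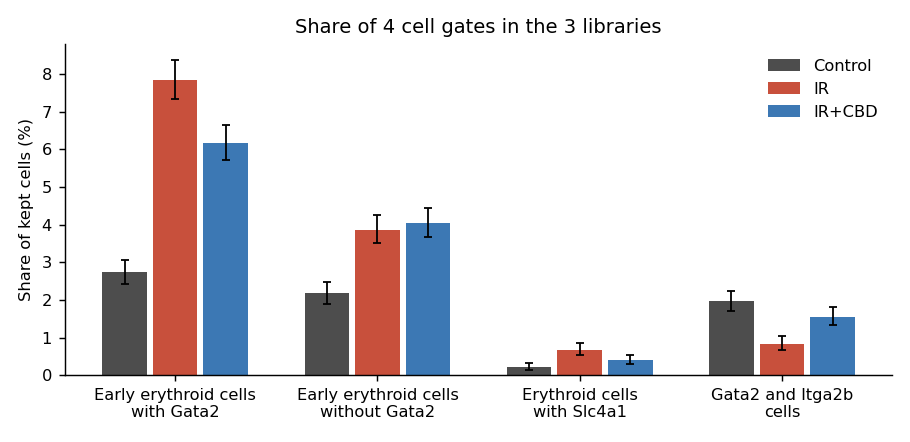
Share of kept cells (%, vertical axis) in 4 gates, for the Control, IR and IR+CBD libraries; bars start at 0 and the lines are 95% Clopper-Pearson intervals. Early erythroid cells with Gata2 stood at 2.74, 7.84 and 6.16%, while the cells with Gata2 and Itga2b were fewest in IR at 0.841%.

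The presence of Gata2 went with an earlier erythroid pattern. Between members and the Gata2-negative cells of the same library, 2.71% of 12922 genes were at least 1.5-fold higher in members in all 3 libraries, and 0.503% at least 1.5-fold lower. Which cells hold a Gata2 UMI depends in part on depth, and the medians of the Gata2-negative cells were close to those of members at 39739.5, 42175 and 38842 UMIs. When the UMIs of each cell were split at random, with one part used to gate and the other to measure, Gata2 was 2.53, 2.80 and 3.08 times higher in the cells gated as members. Gata2 chose these cells, so its ratios describe the choice and are no separate support. With this split, 146 genes were at least 1.5-fold higher in members in all 3 libraries, against 350 without it. Lower genes numbered 38 against 65.

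Genes of stem and multipotent progenitors were higher in the members. Of 23 such genes, 20 were higher in all libraries, beside 38.7% of 12922 genes, and 10 at least 1.5-fold, with list medians on the log2 scale of 0.98, 0.63 and 0.74, against 0.09, 0.05 and 0.05 over all genes. Angpt1, the angiopoietin ligand of the Tie2 receptor, stood at 95.2, 85.4 and 62.6 CPM in members, against 21.9, 19.0 and 13.6 CPM in Gata2-negative cells. Meis1, a homeobox factor of stem cells and megakaryocytes, stood at 22.7, 19.2 and 17.0 CPM against 5.46, 5.31 and 3.63. Both were thus 3.6-fold or more higher in every library. The same held for Ctla2a, a cathepsin inhibitor-like gene (5.56 to 6.02-fold, with a near-identical paralog that may share reads), Rab37, a small GTPase of secretion (3.87 to 5.41-fold), Mc5r, a melanocortin receptor (3.82 to 5.34-fold), and Rgs1, a regulator of G protein signaling (3.62 to 5.07-fold). Prkg1, a cGMP-dependent kinase, was 4.42 to 8.77-fold higher. Each of these genes was higher again in the cells with Gata2 and Itga2b, where Angpt1 reached 1373, 1479 and 1621 CPM and Meis1 532, 593 and 567 CPM.

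Other groups were higher in members as well. Of 30 immediate early genes, which answer signals within minutes, 26 were higher in all libraries and 9 at least 1.5-fold. Myb, a factor that keeps progenitors dividing, stood at 332, 258 and 277 CPM in members against 205, 178 and 197 CPM without Gata2. Kit, the receptor of stem cell factor, stood at 124, 87.4 and 101 CPM against 83.9, 60.7 and 76.7 CPM. Of 24 genes of erythropoietin and stem cell factor signaling, 18 were higher in members in all libraries, with none past 1.5-fold. Of 16 megakaryocyte genes that reached the minimum, 11 were higher. These counts stand beside the 38.7% of all genes that were higher in all libraries.

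Genes of the red cell program were lower in members. All 4 globin genes detected at the minimum were at least 1.5-fold lower in every library, with list medians of -2.64, -1.57 and -1.67. Hba-a1, an alpha globin gene, stood at 35.9, 98.7 and 110 CPM in members against 223, 325 and 363 CPM in Gata2-negative cells. Sox6, a factor of later erythroid cells, stood at 10.3, 15.0 and 18.9 CPM against 34.1, 36.6 and 50.8 CPM, and Dmtn, the membrane skeleton protein dematin, was 0.446 to 0.474 times as high. Of 28 genes of heme synthesis and iron uptake, 22 were lower in all libraries, as were 22 of 28 genes of the red cell membrane and 35 of 43 S phase genes, beside 17.9% of all genes. Gata1, in contrast, differed little, at 105, 101 and 103 CPM against 114, 110 and 114 CPM.

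**Figure D2:**
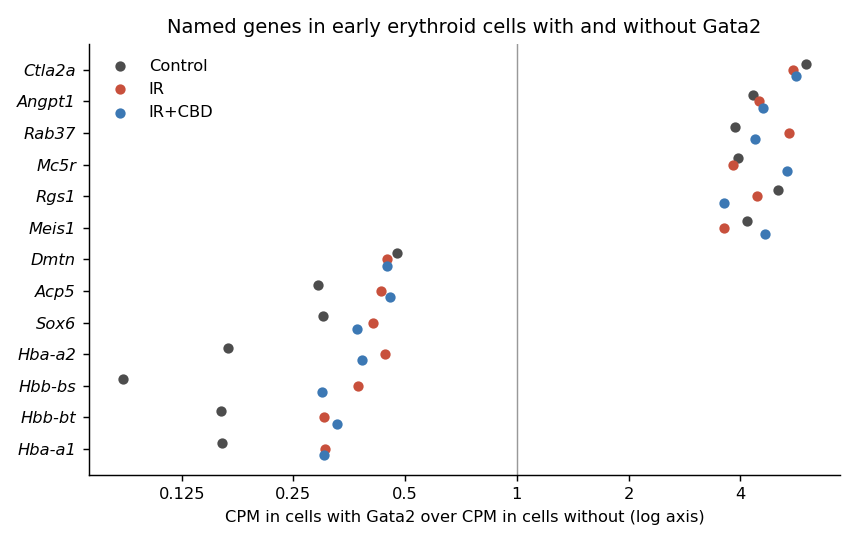
Ratio of CPM in early erythroid cells with Gata2 to CPM in those without (horizontal log axis) for 13 named genes (vertical axis), with 1 point per library and no error bars. The upper 6 genes lay right of 1 and the lower 7 left of 1 in all 3 libraries, and the globin genes of Control lay farther left than those of IR and IR+CBD.

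The promoters of Klf1 and of Hba-a1 and Hbb-bt, an alpha and a beta globin gene, are shown because the choice of members and the low globin level rest on these genes. GATA factors bind sites with the core GATA, and KLF1 binds CACCC. The windows run from 250 bases before to 50 after the start in RefSeq (GRCm38.p6), and lie at chr8:84901732-84902031 on the plus strand for Klf1, chr11:32283422-32283721 on the plus strand for Hba-a1 and chr7:103813874-103814173 on the minus strand for Hbb-bt. Capitals mark GATAA and CACCC on either strand.
Klf1: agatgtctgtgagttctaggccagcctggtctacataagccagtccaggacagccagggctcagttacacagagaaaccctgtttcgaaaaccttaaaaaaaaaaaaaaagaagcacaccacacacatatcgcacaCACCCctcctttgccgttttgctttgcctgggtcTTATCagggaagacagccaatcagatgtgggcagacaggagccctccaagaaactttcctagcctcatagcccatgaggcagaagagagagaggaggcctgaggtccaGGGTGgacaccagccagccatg
Hba-a1: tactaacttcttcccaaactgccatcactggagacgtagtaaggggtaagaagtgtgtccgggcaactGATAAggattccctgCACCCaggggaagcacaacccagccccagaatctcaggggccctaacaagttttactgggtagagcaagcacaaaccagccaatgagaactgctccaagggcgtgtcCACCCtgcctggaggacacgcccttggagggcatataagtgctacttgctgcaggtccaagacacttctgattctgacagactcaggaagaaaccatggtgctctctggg
Hbb-bt: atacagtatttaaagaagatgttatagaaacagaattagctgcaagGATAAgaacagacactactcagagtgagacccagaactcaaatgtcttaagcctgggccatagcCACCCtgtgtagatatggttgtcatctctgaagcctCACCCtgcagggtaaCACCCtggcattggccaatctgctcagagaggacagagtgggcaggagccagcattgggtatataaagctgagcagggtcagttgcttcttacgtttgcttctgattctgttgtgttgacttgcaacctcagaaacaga
Klf1 held 1 GATAA and 2 CACCC matches, Hba-a1 held 1 and 2, and Hbb-bt held 1 and 3, with no overlap between them. Over 32851 promoters in the table, 25.4% held GATAA and 57.5% CACCC, so either match alone is common. Of the 9 globin list genes with a promoter in the table, 7 held GATAA, against 28.4% of all genes. CACCC was held by 6 of the 9 (66.7%), close to the 59.8% of all genes. Neither of the windows at the 2 starts listed for Gata2 held GATAA. A match is a description of letters and not of binding.

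Within the members, levels are also described along the Gata2 count. Gata2 chose the members, so this is no separate support for the pattern above. Members with 1 Gata2 UMI numbered 124, 272 and 255, and those with 5 or more 34, 151 and 90. From 1 to 5 or more UMIs, the summed globin list went from 104 to 32.4 CPM in Control, from 455 to 123 CPM in IR and from 410 to 72.2 CPM in IR+CBD. Over the same range Myb went from 308 to 419 CPM, from 201 to 357 CPM and from 232 to 387 CPM. The list of heme synthesis and iron uptake went from 8265 to 6696 CPM, from 10698 to 7650 CPM and from 10313 to 7956 CPM. The stem cell list went the other way, from 2062 to 2702 CPM, from 1461 to 2701 CPM and from 1557 to 2363 CPM. Not every step was steady, as the globin list of Control stood at 45.8 CPM with 2 Gata2 UMIs and 56.5 CPM with 3 or 4. The median depth of members with 1 and with 5 or more Gata2 UMIs was 42758.5 and 33144 UMIs in Control. It was 44583 and 45879 in IR, and 40250 and 48072.5 with CBD. Depth thus fell with the Gata2 count in Control and rose with it in IR+CBD. The part of depth in the differences within each library was not tested.

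**Figure D3:**
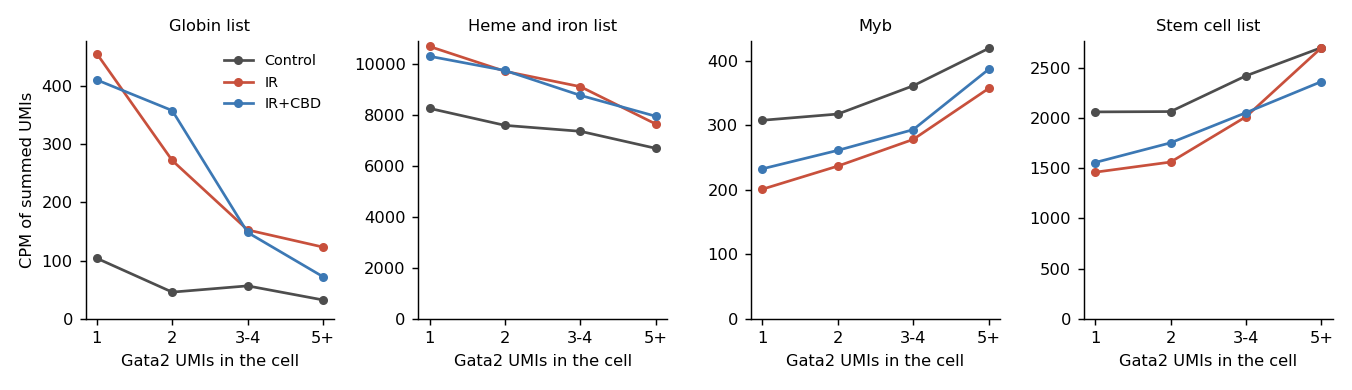
Summed level in CPM (vertical axes, each from 0) of 2 erythroid lists, Myb and the stem cell list in members with 1, 2, 3 to 4 and 5 or more Gata2 UMIs (horizontal axes), with 1 line per library and no error bars. At 1 Gata2 UMI the globin list was lowest in Control at 104 CPM, against 455 and 410 CPM, and it was lower at 5 or more in each library.

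The widest difference from the cells with Gata2 and Itga2b lay in lineage genes. Over 12673 genes, 9.6% were at least 1.5-fold higher in members in all libraries and 22.3% lower. Of 27 genes of heme synthesis and iron uptake, 17 were at least 1.5-fold higher in members, with list medians of 1.34, 1.49 and 1.35. Of 21 megakaryocyte genes, 20 were at least 1.5-fold lower, with medians of -4.44, -4.09 and -4.46, and 22 of 25 stem cell genes were at least 1.5-fold lower. Itga2b chose those cells, and the limits on Klf1 and Car1 set them apart from the members by rule. The differences in Itga2b, Klf1 and Car1 are therefore no results. Those of the heme, megakaryocyte and stem cell lists may follow in part from the choice and are a description.

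Between libraries, the members of IR differed from those of Control in most measured genes of the interferon response, which answer type I and type II interferons. In this comparison 4.53% of 12746 genes were at least 1.5-fold higher in IR and 7.27% at least 1.5-fold lower. Of 53 interferon response genes with 50 UMIs or more, 45 were at least 1.5-fold higher and 1 lower, and the list median was 1.31 on the log2 scale against -0.05 for all genes. Between IR+CBD and Control 35 of 50 interferon genes were higher, beside 41.9% of all genes, and 6 of 46 were at least 1.5-fold higher, beside 2.45%. The list median was 0.22, and with cells thinned to 5000 UMIs before the gate it was 0.50. In IR+CBD against IR, 1.48% of 13219 genes were at least 1.5-fold higher and 3.71% lower, and 42 of 53 interferon genes were at least 1.5-fold lower. Of the 55 with 20 UMIs or more, 55 were lower by any size, beside 52.4% of all genes, with a median of -1.20. Both of these comparisons share the IR library.

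Single genes showed the size of this. Ifi44, an interferon-induced cytoplasmic protein, stood at 0.722 CPM in Control, 15.1 CPM in IR and 0.840 CPM with CBD. It was therefore 20.9 times higher in IR than in Control (10.9 to 45.9) and 0.0557 times the IR level in IR+CBD (0.0350 to 0.0844). Rtp4, a chaperone induced by interferon, stood at 3.85, 45.6 and 9.13 CPM, a ratio of 11.8 (8.89 to 16.1) and then of 0.2 (0.175 to 0.229). Both genes were thus highest in IR. Bst2, the antiviral membrane protein tetherin, was at 103, 277 and 132 CPM, and its ratios were 2.71 (2.55 to 2.87) and 0.476 (0.458 to 0.494). Ifitm3, which blocks viral entry, stood at 116, 305 and 111 CPM. Ifi27 stood at 70.6, 172 and 84.8 CPM. Ly6e, the most abundant gene of the list, moved less at 307, 394 and 295 CPM. Ifitm1 was the exception, at 106 CPM in Control, 58.5 CPM in IR and 43.2 CPM with CBD, and thus 0.550 times as high in IR as in Control (0.513 to 0.589).

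MHC class I genes, which display peptides to T cells and are induced by interferon, followed the list with smaller ratios. Of 22 genes, 21 were higher in IR than in Control, beside 43.0% of all genes, with a median of 0.66. At least 1.5-fold higher were 12, beside 4.53% of all genes. In IR+CBD 20 of 22 were lower than in IR, beside 52.4% of all genes, with a median of -0.42. At least 1.5-fold lower were 4, beside 3.71% of all genes. H2-Q7 stood at 66.3, 263 and 136 CPM, a ratio of 3.96 between IR and Control (3.69 to 4.26), though its near-identical neighbours may share reads. B2m, the light chain common to all class I molecules, stood at 717, 1350 and 953 CPM. H2-K1, a classical heavy chain, stood at 375, 659 and 487 CPM, and H2-D1 at 370, 655 and 470 CPM. For these genes IR+CBD lay between Control and IR.

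The interferon difference was not particular to these cells. The list median for IR against Control was 1.36 in Gata2-negative cells, 1.23 in the cells with Gata2 and Itga2b and 1.12 in all other kept cells. For IR+CBD against IR it was -0.85, -0.92 and -0.94. Without the mixed cells Ifi44 stood at 0.715, 15.5 and 0.772 CPM and Bst2 at 95.4, 273 and 127 CPM. The values thus stayed close to those with these cells.

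Many of these promoters share a sequence that the choice of members did not use. The interferon-stimulated response element holds pairs of GAAA, searched here as GAAANNGAAA on either strand. Isg15, a ubiquitin-like protein that stood at 21.7, 96.9 and 27.1 CPM, is shown as an example (RefSeq, GRCm38.p6, chr4:156200769-156201068, minus strand), with matches in capitals.
Isg15: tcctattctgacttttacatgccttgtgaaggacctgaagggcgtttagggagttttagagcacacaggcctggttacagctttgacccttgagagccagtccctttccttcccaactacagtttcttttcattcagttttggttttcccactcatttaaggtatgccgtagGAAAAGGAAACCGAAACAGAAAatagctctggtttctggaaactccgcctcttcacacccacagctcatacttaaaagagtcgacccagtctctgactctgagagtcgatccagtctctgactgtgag
The promoter held 3 matches that overlap each other. Of 42 interferon list genes with a promoter in the table, 25 held the motif (59.5%), against 3.99% of all genes. Of 20 MHC class I genes 5 held it.

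**Figure D4:**
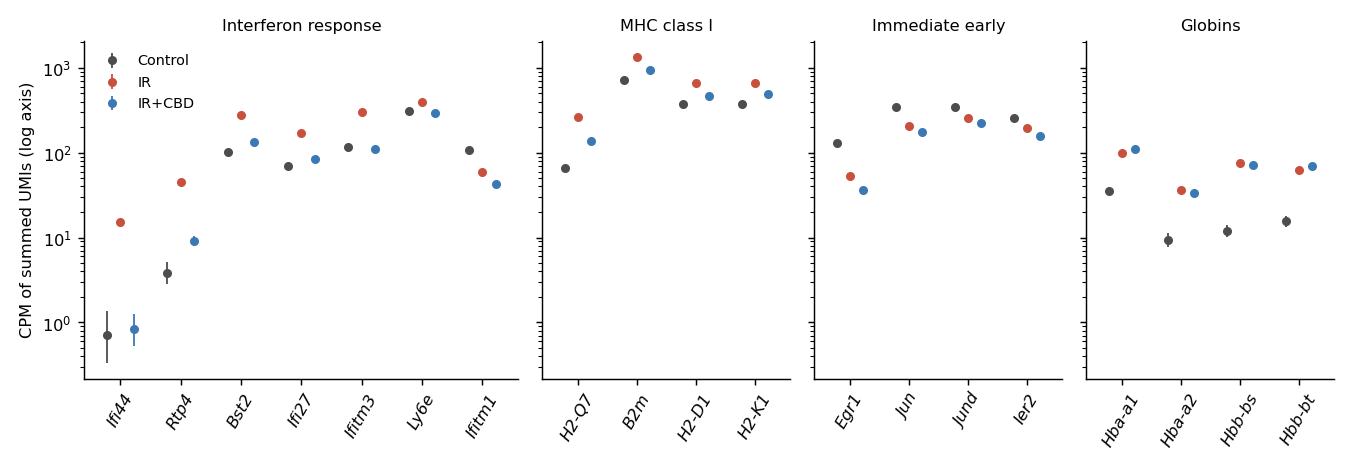
CPM of summed UMIs in members (vertical log axis) for named genes of 4 groups (horizontal axis), with 1 point per library and 95% Poisson intervals that are often smaller than the point. Interferon genes other than Ifitm1 were highest in IR and MHC class I genes lay at a middle level in IR+CBD, while immediate early genes were lower and globins higher in both irradiated libraries than in Control.

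Globins also were higher in the members of IR and IR+CBD than in those of Control. Hba-a1 was lowest in Control (35.9 CPM), and stood at 98.7 CPM in IR and 110 CPM in IR+CBD. The ratio of IR to Control was 2.75 (2.49 to 3.04) and that of IR+CBD to IR 1.11 (1.06 to 1.17). Hbb-bs stood at 12.03, 76.5 and 72.3 CPM, and was 6.36 times higher in IR than in Control (5.40 to 7.54), while the ratio of IR+CBD to IR was 0.946 (0.893 to 1.00). Hbb-bt stood at 15.5, 61.8 and 69.0 CPM, and Hba-a2 at 9.46, 36.2 and 33.9 CPM. All 4 genes were thus over 2.5-fold higher in both irradiated libraries, although each pair of alpha and of beta genes is nearly identical and may share reads. The list median for IR+CBD against IR was 0.04. It became -1.05 with cells thinned to 5000 UMIs before the gate, which left 0.267, 0.696 and 0.502% of cells as members, and the ratios of Hba-a1 and Hbb-bt then were 0.607 and 0.527. The order of IR and IR+CBD thus changed under this thinning. Members with no globin UMI made up 49.0, 24.3 and 26.2% of the total.

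Globin RNA from lysed red cells is a common background in marrow, and it moved with the libraries too. In B-lineage cells the summed globin level was 14.6, 705 and 375 CPM, set by few cells of up to 38, 4604 and 2643 UMIs, and 93.7, 81.9 and 87.4% of these cells held none. In members the sum was 72.8, 273 and 285 CPM, so it lay below that of B-lineage cells in IR and IR+CBD. At equal depth Hba-a1 was seen in 10.3, 21.3 and 26.1% of members against 1.18, 4.72 and 3.17% of B-lineage cells. The share in members was thus above this background in each library, and both were lowest in Control. The part of this background in the difference was not tested. In Gata2-negative cells the globin list median was 0.55 for IR against Control, beside 1.96 in the members.

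Other erythroid groups differed by little. Of 28 genes of heme synthesis and iron uptake, 23 were higher in IR than in Control, beside 43.0% of all genes. None was past 1.5-fold, and the median was 0.17. Fth1, the ferritin heavy chain that stores iron, stood at 3096, 4001 and 3938 CPM. Tfrc, the transferrin receptor, stood at 141, 192 and 216 CPM, a ratio of 1.36 (1.29 to 1.43) and then of 1.13 (1.09 to 1.17). The second ratio, of IR+CBD to IR, turned to 0.846 with cells thinned to 5000 UMIs before the gate. Genes of the red cell membrane had a median of 0.08 and erythroid transcription factors one of 0.05. Among the latter Sox6 was higher, at a ratio of 1.46 between IR and Control (1.20 to 1.78), and Myb lower, at 0.778 (0.750 to 0.807). With Gata2 set to at least 2 UMIs the Sox6 ratio turned to 0.886.

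Receptors showed a small shift. Kit stood at 124 CPM in Control, 87.4 CPM in IR and 101 CPM with CBD, a ratio of 0.702 between IR and Control (0.661 to 0.746). Epor stood at 67.0, 81.7 and 82.1 CPM, a ratio of 1.22 (1.13 to 1.32). Thus Kit was lower and the erythropoietin receptor higher in IR than in Control. For IR+CBD against Control both ratios turned with cells thinned before the gate, to 1.07 for Kit and 0.990 for Epor. Of 26 genes of both pathways, 19 were lower in IR, beside 57.0% of all genes, and 17 of 26 lower in IR+CBD than in IR, beside 52.4%. The list medians were -0.12 and -0.07, and those of all genes -0.05 and -0.01.

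Immediate early genes were lower after irradiation and lowest in IR+CBD. Of 32 genes, 31 were lower in IR than in Control, beside 57.0% of all genes, with a median of -0.46. Of the 31 with 50 UMIs or more, 13 were at least 1.5-fold lower, beside 7.27% of all genes. In IR+CBD 27 of 32 were lower than in IR, beside 52.4% of all genes, with a median of -0.17. Compared with Control directly, where 2.45% of 12113 genes were at least 1.5-fold higher in IR+CBD and 7.7% lower, 18 of 30 were at least 1.5-fold lower. Egr1, a zinc finger factor induced by growth factors and stress, stood at 131 CPM in Control members, at 53.1 CPM after irradiation alone and at 36.5 CPM with CBD. Its ratio was 0.407 between IR and Control (0.381 to 0.434) and 0.688 between IR+CBD and IR (0.637 to 0.742). Jun, a subunit of AP-1, stood at 346, 203 and 176 CPM, and Ier2 at 255, 194 and 157 CPM. Jund stood at 344, 259 and 221 CPM. The order Control, IR, IR+CBD from high to low thus held for each of these genes. In all other kept cells the median was -0.50 for IR against Control but 0.18 for IR+CBD against IR, where 28 of 32 genes were higher in IR+CBD.

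Most genes of earlier progenitors were lower in the members of both irradiated libraries. Of 26 stem cell genes, 19 were lower in IR than in Control, beside 57.0% of all genes, and 22 lower in IR+CBD than in Control, beside 58.1%, with medians of -0.25 and -0.35. Of the 24 with 50 UMIs or more, 7 were at least 1.5-fold lower in IR and 4 at least 1.5-fold higher, beside 7.27% and 4.53% of all genes. Cdk6, a cell cycle kinase abundant in progenitors, stood at 728, 581 and 583 CPM, and Runx1, a core factor of blood development, at 324, 270 and 278 CPM. With cells thinned to 5000 UMIs before the gate the Runx1 ratio of IR+CBD to Control turned from 0.858 to 1.06. Flt3, a receptor of lymphoid and multipotent progenitors, stood at 5.21, 1.02 and 2.99 CPM, but without mixed cells at 0.919, 0.298 and 0.682 CPM, from 9, 9 and 15 UMIs. Its level thus came mostly from mixed cells. Slamf1, a receptor of stem cells, was higher in IR, at 1.36, 3.67 and 2.92 CPM. Of 16 genes of glucocorticoid signaling and self-renewal of early erythroid cells, 14 were lower in IR and 16 lower in IR+CBD than in Control. All genes stood at 57.0% and 58.1% lower in these comparisons.

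Of 19 megakaryocyte genes, 14 were lower in IR than in Control and 15 lower in IR+CBD than in IR, with medians of -0.34 and -0.29. These counts stand beside 57.0% and 52.4% of all genes, with medians of -0.05 and -0.01. With cells thinned to 5000 UMIs before the gate the median for IR+CBD reversed, to 0.37 against IR and 0.059 against Control, so no direction is given for IR+CBD. Mef2c, a factor shared by megakaryocytes and B cells, stood at 93.9, 64.1 and 64.5 CPM. Pf4, the platelet factor and the gene most used to mark this lineage, stood at 8.74, 7.60 and 2.56 CPM. Without mixed cells Pf4 stood at 2.35, 1.95 and 2.64 CPM, and the order of the libraries changed. The difference in Pf4 thus rested on cells that hold 20 or more Pf4 UMIs or other lineage transcripts. The limit itself takes out the cells with most Pf4, so the fall in Pf4 is fixed in part by the choice. Without predicted doublets, which were not chosen by Pf4, the ratio of IR+CBD to Control went from 0.292 to 1.02.

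Genes of the cell cycle were higher in the irradiated libraries. S phase genes made up a median of 0.409, 0.469 and 0.452% of the UMIs of a member, and G2/M genes 0.857, 0.904 and 0.938%. At an equal depth of 5000 UMIs, 49.7% of Control members (43.8 to 55.5), 66.6% of IR members (63.2 to 69.8) and 62.4% of IR+CBD members (58.5 to 66.2) held at least 20 S phase UMIs. The share was lowest in Control, and these intervals too hold only counting error within 1 library each. The limit of 20 cuts a continuous score, with 72, 168 and 146 members within 2 UMIs of it. At least 20 G2/M UMIs were held by 91.8, 94.3 and 96.4% of members, and both were low in 17, 29 and 17 members.

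In the lists, 38 of 43 S phase genes and 42 of 54 G2/M genes were higher in IR than in Control, beside 43.0% of all genes. Their medians were 0.17 and 0.10. Rrm2, a subunit of ribonucleotide reductase that makes DNA precursors, stood at 91.2, 146 and 137 CPM, a ratio of 1.61 (1.51 to 1.71). Pcna, the sliding clamp of DNA synthesis, stood at 285, 333 and 324 CPM. Ccnd1, cyclin D1, stood at 12.8, 23.3 and 29.2 CPM, and Cdkn1a, the p53 target p21 that halts the cycle, at 20.1, 10.5 and 9.39 CPM. Cyclin D1 was thus higher and p21 lower in both irradiated libraries, but the Cdkn1a ratio of IR to Control turned from 0.524 to 1.26 with cells thinned to 5000 UMIs before the gate. Of 32 p53 target genes 22 were lower in IR than in Control, beside 57.0% of all genes, with a median of -0.18 beside -0.05, while Bax, a p53 target that promotes cell death, stood at 171, 194 and 181 CPM. Bcl2l11, the death promoter Bim, stood at 29.4, 15.6 and 21.0 CPM. Members held fewer S phase UMIs than Gata2-negative cells, of which 66.8, 74.8 and 74.7% reached 20 at equal depth.

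Some single genes differed between libraries outside any list. Tceal3 stood at 14.0, 1.68 and 1.86 CPM in members and at 11.6, 0.700 and 1.63 CPM in Gata2-negative cells. Slc15a2, a peptide transporter, stood at 5.53, 0.970 and 8.47 CPM in members and at 4.51, 0.700 and 7.74 CPM in Gata2-negative cells. Xlr stood at 1.20, 5.93 and 0.183 CPM in members and at 1.15, 5.84 and 0.242 CPM in Gata2-negative cells. The same libraries were thus high or low in both kinds of cells. Tjp1, a protein of tight junctions, was higher after irradiation in both, at 14.1, 52.9 and 50.2 CPM in members and 18.6, 59.2 and 53.9 CPM in the others. Khdrbs3, an RNA-binding protein, was lower in both, at 17.5, 3.51 and 4.02 CPM and 15.7, 3.27 and 3.75 CPM. St8sia6, a sialyltransferase, stood at 14.0, 3.07 and 2.37 CPM in members.

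Others rested on few cells. Rpl39l had 0 UMIs in Control, 85 UMIs in IR and 113 with CBD, at least 9.26-fold higher in IR and at least 17.2-fold in IR+CBD against a floor of 3 UMIs in Control, but in 0.617% of IR and 2.05% of IR+CBD members. It resembles Rpl39 closely and may share its reads. Ly6k had 0, 5 and 75 UMIs, in 2.37% of IR+CBD members. Immunoglobulin genes led the list of IR against Control, with Igha at 3, 1903 and 59 UMIs and Igkc at 25.4, 212 and 32.0 CPM. Without mixed cells Igha stood at 3, 45 and 50 UMIs and Igkc at 10.8, 7.74 and 9.72 CPM. Stfa1, a neutrophil gene, had 86 UMIs in IR against 0 for Control, at least 9.37-fold higher, but 0 and 3 UMIs without mixed cells. Without the mixed cells the differences in Igkc and Stfa1 were thus lost, while Igha remained 4.86 times higher in IR than in Control (1.56 to 24.4). Rpl39l then had 0, 47 and 75 UMIs and Ly6k 0, 5 and 50 UMIs.

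**Figure D5:**
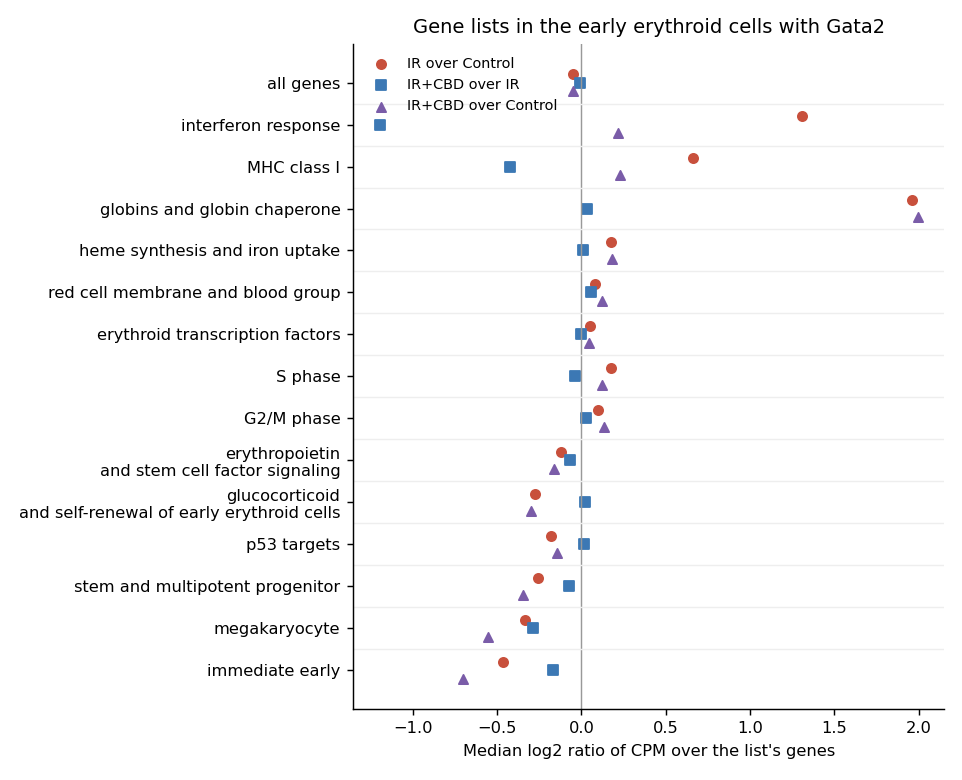
Median log2 ratio of CPM over the genes of each list (horizontal axis) in the members, for 14 lists and for all genes (vertical axis), with 1 symbol per comparison and no error bars. The interferon list stood at 1.31 for IR against Control and -1.20 for IR+CBD against IR, while globins stood at 1.96 and 0.04 and immediate early genes at -0.46 and -0.17.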

How the data were processed

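BMNCs of 3 pooled mice per condition were profiled on the 10x 3' platform, and for each of 3 libraries the authors deposited raw UMI counts per gene and cell, with no normalization. Cell Ranger is named as version 7.0.1 in the headers and as 4.0 in the methods. The submitters' processing notes name GRCm39, so no gene positions of that build are given, and promoters come from the RefSeq table of GRCm38.p6. The 3 files held 56980 features, of which 148 symbols occur more than once, and 12200, 11951 and 11884 barcodes.

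The study's own limits of 200 genes and 5% mitochondrial UMIs were applied and left 10674, 10345 and 10273 cells with 194839224, 202361682 and 173466089 UMIs. Doublets stayed in, and their removal was an alternative: the study removed them with DoubletFinder, here Scrublet scores (scanpy 1.11.5) were used, with the top 0.8% of cells per 1000 cells marked in each library. Libraries shared 26, 34 and 28 barcodes, none among members. UMIs of the members were summed to 12467409, 38140999 and 27381376 per library and given as CPM with Poisson intervals. Ratios carry exact conditional binomial intervals and shares Clopper-Pearson intervals. List medians use log2 ratios with a pseudocount of 0.5 UMIs over genes with 20 UMIs or more, and counts past 1.5-fold use genes with 50 UMIs or more. With 1 library per condition no test was made. The ratio intervals were tested on simulated sums drawn as Poisson counts. That simulation held no spread between cells or mice, so it cannot show how the intervals do where UMIs lie in few cells.

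The members, the gene lists and the comparisons were chosen with earlier results of these data known. Named genes were the 5 of the rule, per comparison the 10 highest and 10 lowest by the interval's bound nearest 1, the 12 highest and 12 lowest against Gata2-negative cells that agreed in direction in 3 libraries, and per list the 4 with most UMIs and the highest and lowest ratio. Isg15 and Gata1 were named after their values were seen. Some genes that the rule names are not reported here. Limits of the gate, depth, minimum counts and scaling were varied. Scripts ran under Python 3.11.15 with pandas 2.3.3, scipy 1.17.1 and numpy 2.4.6.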

Additional observations from a re-analysis of the deposited data

How the results depend on the processing

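No paired analysis was possible because each condition was 1 library of pooled mice with no replicate numbers, so that leaving out a replicate was not possible either. The precision is limited by counting within 1 library, and differences between mice were not measured. The higher share in IR than in Control, the interferon, MHC class I and immediate early medians between IR and Control and the lower globins in members than in Gata2-negative cells kept their direction under each alternative run. Of the shares, list medians and counts, 668 stayed close to the reported value, 72 moved and 2 reversed, and of the ratios of single genes 1221 stayed close, 305 moved and 39 reversed. The cause of each change was not tested beyond what the alternative changes by construction.

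With Gata2 at 2 UMIs or more, shares were 1.57, 5.21 and 3.68%, the share ratios 3.31 (IR over Control) and 0.706 (IR+CBD over IR), the G2/M medians 0.22 for IR and 0.20 for IR+CBD over Control, the S phase medians 0.11 and 0.048, and the globin median for IR+CBD over IR 0.18. Against Gata2-negative cells the globin medians were then -2.14 in IR and -2.11 in IR+CBD and the heme median -0.37 in IR. The G2/M share of UMIs was 0.803% in Control, the S share 0.451% in IR, and the Sox6 ratio of IR over Control reversed to 0.886. With Klf1 and Car1 at 1 UMI or more, shares were 3.55, 9.15 and 7.37% and G2/M shares of UMIs 0.807, 0.883 and 0.912%. With both at 3 or more, shares were 2.41, 6.96 and 5.58%, and the Olfm4 ratio of IR+CBD over IR reversed to 1.37.

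Thinning each cell to 5000 UMIs before the gate left few members (0.267, 0.696 and 0.502% of cells; share ratio of IR+CBD over Control 1.88). The counts past 1.5-fold became 174 (higher than in Gata2-negative cells), 311 and 223 (IR+CBD over IR, higher and lower), 385 (lower, IR over Control) and 231 (lower, IR+CBD over Control). List medians became 0.061 and 0.044 for G2/M over Control, 0.28 (IR over Control) and -0.083 (IR+CBD over IR) for S phase, 0.95 over Control and -1.05 over IR for globins in IR+CBD, -0.14 for heme, -0.38 over Control and -0.094 over IR for immediate early genes, 0.50 for interferon in IR+CBD over Control and 0.18 for stem cell genes in IR+CBD over IR. The megakaryocyte medians of IR+CBD reversed to 0.059 over Control and 0.37 over IR. Globins against Gata2-negative cells were -2.37 in Control and -2.11 in IR+CBD. G2/M shares of UMIs were 0.805% in Control and 0.854% in IR and the S share 0.487% in IR. Gene ratios that reversed there were, for IR over Control, Cdkn1a 1.26, Klf4 1.32, Nfkbia 1.02 and Jchain 0.378, for IR+CBD over Control, Agbl1 0.274, Epor 0.990, Ifitm1 1.52, Kit 1.07, Klf4 1.92, Ly6e 1.29 and Runx1 1.06, and for IR+CBD over IR, Hba-a1 0.607, Hbb-bt 0.527, Ifitm1 2.27, Igha 4.83, Igkc 1.33, Jchain 2.90, Pf4 1.93, Sox6 0.724 and Tfrc 0.846. Thinning after the gate gave a G2/M share of 0.880% in IR.

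Without mixed cells, an alternative chosen after seeing the data, shares were 2.35, 6.57 and 5.18% and the immediate early median for IR+CBD over IR -0.29. Reversed ratios were Agbl1 0.445 and Iglc2 0.635 and Pf4 1.12 (IR+CBD over Control), Igkc 0.715 and Jchain 0.518 (IR over Control), and Agbl1 0.392, Igha 1.53, Igkc 1.26, Jchain 2.66 and Pf4 1.35 (IR+CBD over IR). Without predicted doublets, shares were 7.27% in IR and 5.70% in IR+CBD, the medians for IR+CBD over IR 0.16 for globins and -0.30 for immediate early genes, and the reversed ratios Iglc2 0.767 and Pf4 1.02 (IR+CBD over Control), Jchain 0.537 (IR over Control), and Agbl1 0.631, Igha 1.58, Iglv1 1.39 and Jchain 2.53 (IR+CBD over IR).

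Count splitting left 146 genes higher and 38 lower than in Gata2-negative cells, against 350 and 65, with a globin median of -1.83 in IR+CBD. A minimum of 200 UMIs left 231, 74 and 27 genes higher and 320, 291 and 151 lower (IR over Control, IR+CBD over Control, IR+CBD over IR), against 577, 297 and 196 higher and 927, 933 and 491 lower. Thinning the sums to the smallest library left 350 and 178 higher over Control. The mean of per-cell CPM gave G2/M medians of 0.17 (IR+CBD over Control) and 0.052 (IR+CBD over IR), and scaling to the median ratio 0.18 for IR+CBD over Control.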
